A study of Mus musculus with 4 samples.

Results

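The collagen gene family was followed across mouse embryos that lack nucleoredoxin and wild-type embryos at the embryonic stages E9.5 and E11.5 (days of gestation). Nucleoredoxin, the product of Nxn, is a thioredoxin-related protein that binds Dishevelled in the Wnt pathway. Members were all gene probes that the array design names Col, a type number, the letter a and a chain number. The rule found 78 of 41174 gene probes, which stand for 40 collagen genes: 11 fibrillar, 6 of basement membranes, 9 FACIT (fibril-associated) and 14 of other types. Of these, 55 probes of 37 genes passed the filter on low signal and were among 17161 genes tested. The probes of Col10a1, the hypertrophic cartilage collagen, and of Col28a1 and Col4a3 were not well above background in enough channels and were not tested. Col6a4, Col6a6 and Col26a1, which the array design carries under other names, are outside the rule and were not counted.

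Both groups were C57BL/6J embryos, of genotype NRX -/- (the labels' name for the Nxn-null, called KD in the array titles) or NRX +/+ (wild type). Embryo RNA of both genotypes was set against each other on 4 two-colour arrays, 2 for each stage. Cy5 marked the Nxn-null on replicate 1 of a stage and the wild type on replicate 2. Nothing in the labels says that the 2 arrays of a stage come from separate RNA extracts. The sources used here do not give how many embryos each RNA came from. What the p-values measure is thus at most a spread between these arrays, which may be technical. For the ratios at a stage it is only how far the difference between the dye-swapped arrays changed between stages, moderated over all genes.

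Collagens are secreted proteins whose alpha chains wind round each other into a rigid helix. Fibrillar types (I, II, III, V and XI among them) assemble into the banded fibrils of mesenchyme, skin, bone and cartilage, and type IV forms the network of basement membranes. FACIT collagens such as types IX, XII and XIV sit on the surface of fibrils, and types VI and VIII form beaded filaments and hexagonal lattices. Chains are hydroxylated, glycosylated and folded in the endoplasmic reticulum, trimmed by proteinases outside the cell and cross-linked by lysyl oxidases. In the mouse embryo, fibrillar collagens accumulate as mesenchyme spreads and as the first cartilage condensations form after mid-gestation.

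The upstream bases of 5 collagen genes are printed, picked among those with a promoter entry because they share patterns described here. Col1a1, Col2a1, Col9a3 and Col14a1, which carry these patterns too, have no promoter entry. Col1a2 and Col3a1 encode interstitial fibrillar chains whose signal was lower in the Nxn-null at E11.5. Col9a1, Col9a2 and Col8a2 had a null over wild-type ratio that was lower at E11.5 than at E9.5. The sequences are from RefSeq (GRCm38.p6), run up to the base before the gene's first annotated start, and lie on the plus strand. Capitals mark matches on either strand to CCAAT (the CCAAT box), GGGCGG (the GC box) or TATAAA (the TATA box).
Col1a2, chr6:4505368-4505617: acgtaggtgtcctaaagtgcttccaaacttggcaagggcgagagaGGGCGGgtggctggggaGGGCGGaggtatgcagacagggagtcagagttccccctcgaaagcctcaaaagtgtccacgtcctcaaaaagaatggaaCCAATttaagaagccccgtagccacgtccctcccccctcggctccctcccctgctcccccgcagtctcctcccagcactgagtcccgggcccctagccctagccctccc
Col3a1, chr1:45311288-45311537: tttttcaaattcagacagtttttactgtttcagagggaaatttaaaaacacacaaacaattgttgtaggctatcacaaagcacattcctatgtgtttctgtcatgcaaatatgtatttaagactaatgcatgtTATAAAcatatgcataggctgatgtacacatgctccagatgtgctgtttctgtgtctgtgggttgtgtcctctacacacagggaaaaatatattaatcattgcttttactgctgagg
Col9a1, chr1:24177360-24177588: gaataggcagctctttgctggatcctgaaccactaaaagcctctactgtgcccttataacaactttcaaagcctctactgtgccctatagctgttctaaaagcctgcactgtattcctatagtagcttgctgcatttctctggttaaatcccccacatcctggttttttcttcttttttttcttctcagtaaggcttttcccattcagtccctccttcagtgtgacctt
Col9a2, chr4:121039316-121039565: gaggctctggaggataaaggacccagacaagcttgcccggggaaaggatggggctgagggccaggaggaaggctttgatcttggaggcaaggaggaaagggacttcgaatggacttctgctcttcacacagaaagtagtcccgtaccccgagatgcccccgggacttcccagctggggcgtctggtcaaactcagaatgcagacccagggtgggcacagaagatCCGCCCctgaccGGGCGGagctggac
Col8a2, chr4:126286544-126286793: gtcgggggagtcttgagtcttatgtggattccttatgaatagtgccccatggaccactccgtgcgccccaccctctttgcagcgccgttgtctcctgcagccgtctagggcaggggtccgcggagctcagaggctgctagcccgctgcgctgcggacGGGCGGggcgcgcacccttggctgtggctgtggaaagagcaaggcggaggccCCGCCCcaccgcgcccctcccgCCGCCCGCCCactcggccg
Col1a2 held 1 CCAAT match, which begins 109 bases before the start, and 2 GGGCGG matches. Col3a1 held 1 TATAAA match, 117 bases before the start. Col9a2 held 2 and Col8a2 held 4 GGGCGG matches, of which 2 in Col8a2 overlap each other, and Col9a1 held a match to none of these letters. The promoter table matched 32 of the 40 collagens, with 35 start sites. In the 250 bases before these starts, GGGCGG was found in 54.3% of collagen promoters and in 32.7% of all 32851 promoters. CCAAT was found in 34.3% of collagen and 33.8% of all promoters, and TATAAA in 14.3% and 12.4%. The Col4a1 and Col4a2 starts lie 21 bases apart, pointing away from each other.

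The Nxn signal itself was lower in the Nxn-null on every array. Its brighter probe had log2 ratios of -1.04 and -0.93 on the E9.5 arrays and -1.24 and -1.42 on the E11.5 arrays, which is 44.8% of wild type on average. The sources used here do not say whether the probe lies inside the deleted sequence. All 4 arrays lay on 1 slide in 1 scan. Between 48.2% and 70.3% of gene probes per channel were well above background, with the share higher in Cy5 than in Cy3 on every array. For the collagens, 30 of 37 genes were well above background in all 8 channels.

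At E9.5 the family did not move as a whole, and single members were higher or lower in the Nxn-null. Col14a1, the FACIT chain of type XIV in dense mesenchyme, and Col1a1, the main chain of type I, were lowest relative to wild type. Col2a1 and Col9a1, cartilage fibril chains, and Col8a2, a type VIII chain, were highest. The median log2 ratio over the 37 collagens was 0.017, and that of all genes was -0.001. In limma's fit to the 4 arrays, with stage means and a dye term, 3 collagens were higher and 7 lower at a Benjamini-Hochberg adjusted p under 0.05. Over all genes, 9.87% were called higher and 14.8% lower at E9.5. The mean ratio was at least 1.5-fold apart from 1 in Col14a1 alone, and in no collagen was it 2-fold apart, where 0.0874% of all genes were 2-fold higher and 0.746% lower. Fewer cells of a type and less RNA per cell cannot be told apart in such bulk RNA.

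Col14a1 had log2 ratios of -0.84 and -0.93 on the 2 arrays at E9.5 (mean -0.88, SE 0.074, limma adjusted p 1.45e-08), which is 54.2% of wild type. Both arrays gave nearly the same value, on either dye. Col1a1 had -0.49 and -0.44 (mean -0.47, SE 0.068, limma adjusted p 2.89e-05), 72.4% of wild type. Col1a2, the second chain of type I, had -0.23 and -0.14 (mean -0.19, limma adjusted p 0.0395). Both type I chains were thus lower on both arrays. A second Col1a1 probe, also well above background in every channel, gave -0.15 and -0.03, with an adjusted p of 0.389 in limma, so that the size of the Col1a1 difference at E9.5 depended on the probe.

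Col9a1 had log2 ratios of 0.38 and 0.25 at E9.5 (mean 0.31, limma adjusted p 0.000915). Col2a1, the chain of the main cartilage fibril, had 0.27 and 0.31 (mean 0.29, limma adjusted p 0.0017), and its second probe had 0.15 and 0.38. Col8a2, in the lattice under corneal and vascular endothelium, had 0.30 and 0.25 (mean 0.27, limma adjusted p 0.00255). These 3 chains were higher in the Nxn-null on both arrays, at 121% to 124% of wild type. Col9a2 (0.00 and 0.26) and Col9a3 (0.02 and 0.06), the partners of Col9a1 in type IX, did not pass the test at E9.5.

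The other 4 collagens called lower at E9.5 had 1 array near 0 and 1 far below it. Col4a6, a type IV chain of epithelial basement membranes, had 0.06 and -0.59. Its arrays pointed opposite ways, and its call (limma adjusted p 0.0033) rests on the dye term, which takes out the part of the array difference that both stages share. Its other kept probes had mean ratios of -0.00 and 0.15. Col13a1, a transmembrane collagen, had -0.09 and -0.41, and Col7a1, the anchoring fibril chain, had -0.05 and -0.41. Col17a1, a transmembrane chain of hemidesmosomes, had -0.05 and -0.33, and was well above background in each genotype on only 1 of the 2 arrays at E9.5. In these 4 genes the low value came from the array whose Cy3 channel held the Nxn-null.

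The E9.5 calls depended on how dye was handled and arrays were normalized. With no dye term, 0 collagens were called higher and 1 lower at E9.5, and Col14a1 was the gene that remained (limma adjusted p 0.0277). Leaving out any 1 of the 4 arrays left 0 higher, and 1 lower (0 lower without E9.5 replicate 2). The fits with an array left out also held no dye term, so they do not test a single array apart from it. Centring each array on its median left 0 higher and 1 lower, and the log10 ratio of Feature Extraction left 1 and 1.

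**Figure D1:**
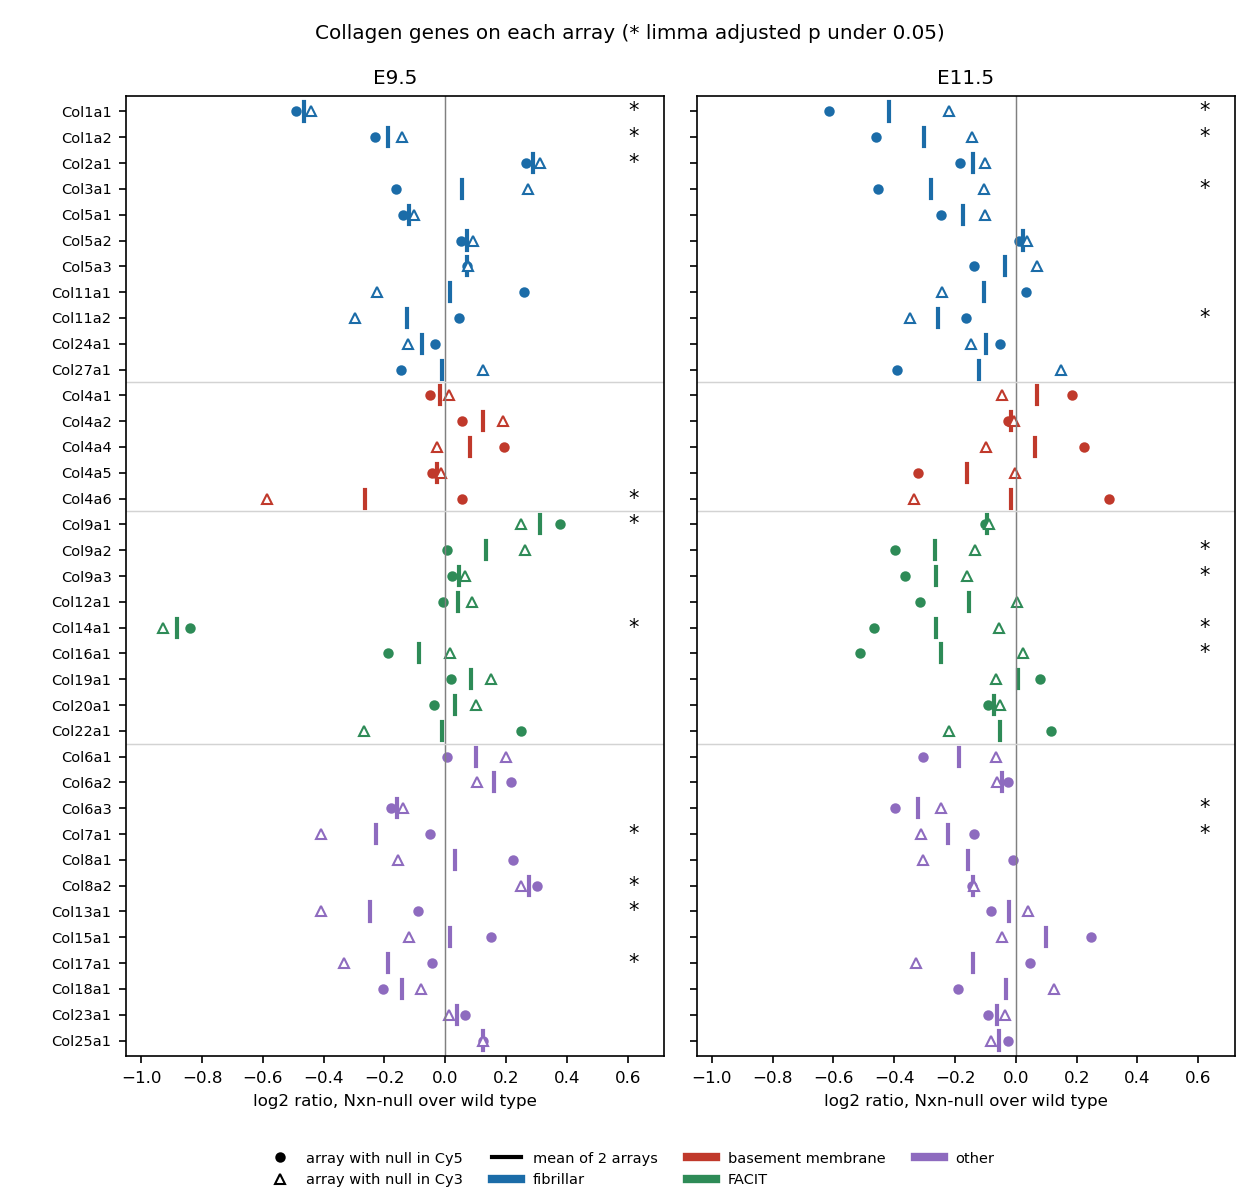
Log2 ratio of Nxn-null over wild type for the 37 collagen genes tested (rows, coloured by type) at E9.5 (left) and E11.5 (right), with filled circles for the array with the Nxn-null in Cy5, open triangles for the dye-swapped array, bars for their mean and stars for a limma adjusted p under 0.05. At E9.5 the means lie on both sides of 0, with Col14a1 farthest below it at -0.88, and at E11.5 they lie below 0 in 32 of 37 genes.

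At E11.5 the collagens that differed were all lower in the Nxn-null. Both chains of type I, the type III chain, Col6a3, 2 of the 3 type IX chains, Col11a2, Col14a1, Col16a1 and Col7a1 were lower, by modest amounts. The median log2 ratio of the collagens was -0.12, beside 0.007 over all genes. The mean ratio was below 0 in 32 of 37 collagens (86.5%) and in 47% of all genes. In the same limma fit, 10 collagens were lower and 0 higher, where 5.61% of all genes were called lower and 3.66% higher. At an unadjusted p under 0.05, 0 collagens were higher, beside 9.35% of all genes. The 10 means lay between 74.9% of wild type for Col1a1 and 85.6% for Col7a1, and none was 1.5-fold apart. No collagen was 2-fold apart at E11.5, where 0.0524% of all genes were 2-fold higher and 0.152% lower.

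Among the fibrillar chains, Col1a1 had log2 ratios of -0.61 and -0.22 at E11.5 (mean -0.42, SE 0.068, limma adjusted p 0.000249), and its second probe had -0.50 and -0.16. Col1a2 had -0.46 and -0.15 (mean -0.30, limma adjusted p 0.00338), and Col3a1, the type III chain of distensible tissues, had -0.45 and -0.10 (mean -0.28, limma adjusted p 0.00502). All 3 were lower on both arrays, and farther so on the array with the Nxn-null in Cy5. A dimmer Col3a1 probe, well above background in 5 of 8 channels, had 0.06 and -0.10. Col11a2, a chain of the thin cartilage fibril, had -0.16 and -0.35 (mean -0.26, limma adjusted p 0.0111), while its second kept probe had a mean of 0.10.

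Among the FACIT chains, Col9a2 had -0.40 and -0.13 at E11.5 (mean -0.26, limma adjusted p 0.00728), and Col9a3 had -0.36 and -0.16 (mean -0.26, limma adjusted p 0.00951). Col9a1, their partner, had -0.10 and -0.09 and did not pass. Col14a1 had -0.47 and -0.06 (mean -0.26, limma adjusted p 0.0277), 83.4% of wild type against 54.2% at E9.5. Col16a1 had -0.51 and 0.02 (mean -0.25, limma adjusted p 0.0244), so that 1 of its arrays showed no lower signal. Among the other types, Col6a3, the long chain of the type VI filament, had -0.40 and -0.25 (mean -0.32, limma adjusted p 0.0015), and Col7a1 had -0.14 and -0.31 (mean -0.23, limma adjusted p 0.0288).

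The basement membrane chains held 0 calls among 5 genes tested at E11.5, where 5.61% of all genes were called lower and 3.66% higher. Col4a1, 1 of the main chains of every basement membrane, had 0.18 and -0.05, and its partner Col4a2 had -0.03 and -0.01. Col18a1, the vascular basement membrane proteoglycan collagen counted with the other types, had -0.19 and 0.13, and its 2 kept probes differed in sign at both stages. Col5a1 (mean -0.17), Col11a1 (-0.10) and Col2a1 (-0.14) were fibrillar chains with means below 0 that did not pass. A Col27a1 probe other than the brightest had 0.80 and 0.48 at E11.5 (limma adjusted p 2.28e-06 with each probe tested on its own), against -0.39 and 0.15 on the brightest one. Of 15 collagens with several kept probes, probes of opposite sign were found in 6 at the earlier and 7 at the later stage.

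The E11.5 calls were also bound to the dye term. Without it 0 collagens were called, and leaving out any 1 of the 4 arrays likewise left 0. Since no dye term was fitted once an array was left out, these results are not separate from each other. Normalizing each array by its median in place of loess left 0 calls and moved the collagen median from -0.12 to -0.03. The log10 ratio of Feature Extraction also left 0.

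By the test, 4 chains were lower at both stages: Col1a1, Col1a2, Col7a1 and Col14a1. They are 10.8% of the collagens tested, beside 2.99% of all genes. On all 4 arrays, 8 collagens had a ratio below 0 and 1, Col5a2, had a ratio above 0. Over all genes, 10.5% were below 0 and 7.59% above 0 on all 4 arrays. The 8 were Col1a1, Col1a2, Col4a5, Col5a1, Col6a3, Col7a1, Col14a1 and Col24a1. With the arrays of a stage averaged and counted as 1 replicate, limma called 0 collagens and 0 of all 17161 genes (0% higher, 0% lower), and the lowest adjusted p over all genes was 0.393. At an unadjusted p under 0.05 this fit held 6 collagens, all lower, and 1243 genes in all. Col1a1 had the lowest adjusted p of the family in it, 0.512, at a shared log2 ratio of -0.44.

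The ratio differed between the stages in 8 collagens. In 7 of them the Nxn-null signal, relative to wild type, was lower at E11.5 than at E9.5, and in Col14a1 it was higher. The test is limma's E11.5 minus E9.5 contrast in the 4-array fit, in which 5.21% of all genes were called lower and 8.29% higher. The 7 were the cartilage fibril chains Col2a1, Col9a1, Col9a2 and Col9a3, the type VIII chain Col8a2, Col3a1 and the type VI chain Col6a1.

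Col2a1 went from a mean of 0.29 at E9.5 to -0.14 at E11.5, a difference of -0.43 (SE 0.088, limma adjusted p 0.00177). Col8a2 went from 0.27 to -0.14 (limma adjusted p 0.00244), Col9a1 from 0.31 to -0.09 (limma adjusted p 0.0033), and Col9a2 from 0.13 to -0.26 (limma adjusted p 0.00343). In Col2a1, Col8a2, Col9a1 and Col9a2 both arrays lay above 0 at E9.5 and both below 0 at E11.5. Col9a2 was barely above 0 on E9.5 replicate 1 (0.0045). Col9a3 had the same order on its arrays, with a difference of -0.31 (limma adjusted p 0.0269). This order adds no support, since the contrast that picked these genes used the same arrays. The share of all genes with this order was not counted. Col3a1 differed by -0.33 (limma adjusted p 0.0141) and Col6a1 by -0.29 (limma adjusted p 0.0329). Col6a1 had 0.01 and 0.20 on the E9.5 arrays, against -0.31 and -0.07 on those of E11.5. Col14a1 differed by 0.62 in the other direction (SE 0.10, limma adjusted p 0.000254).

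Without the dye term, 0 of these 8 differences were called, and the same held when any 1 array was left out or when arrays were centred on the median. Leaving out an array also took out the dye term, so it is no separate check. The 8 signs were the same under each of these settings. Over the family, 28 of 37 ratios (75.7%) were lower at E11.5 than at E9.5, beside 47.2% of all genes.

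**Figure D2:**
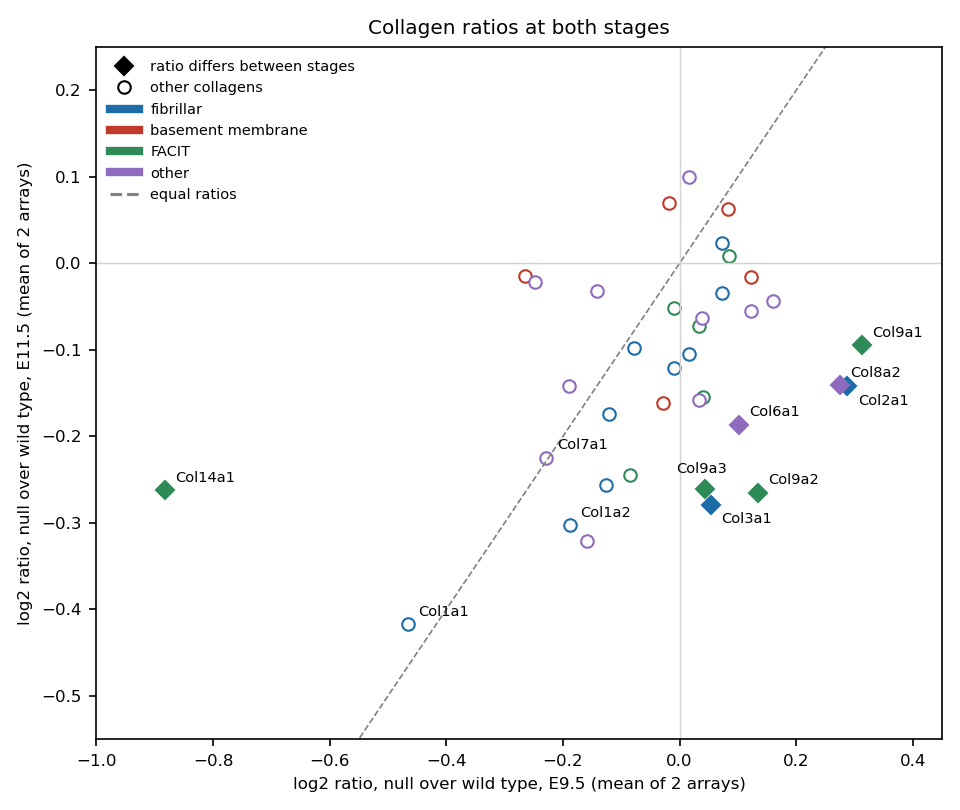
Mean log2 ratio of Nxn-null over wild type at E9.5 (horizontal) and E11.5 (vertical) for 37 collagens, each a mean of 2 arrays, coloured by type; filled diamonds mark the 8 whose ratio differed between stages in limma's test, and the dashed line marks equal ratios. Of the diamonds, 7 lie to the right of the line and below 0 on the vertical axis, Col14a1 lies alone on the far left, and Col7a1 and Col1a1 lie near the line.

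From E9.5 to E11.5 the collagens rose in both genotypes. The log2 change was above 0 in both the Nxn-null and wild type in 30 of 37 collagens (81.1%), beside 39.4% of all genes. The median change was 0.62 on the log2 scale, beside -0.02 over all genes. In limma's fit on single-channel signals, with the 2 genotypes as replicates, 28 collagens rose and 3 fell, where 21.1% of all genes were called higher and 21% lower. At least 2-fold rises were seen in 10 collagens (27%) and in 2.7% of all genes. Col12a1, Col17a1, Col19a1 and Col20a1 passed the filter only through their E11.5 signal, which favoured a rise in advance. All of them are among the 28, and Col17a1 is among the 10. With only genes well above background in both genotypes at a stage, 26 collagens rose and 4 fell. With array means in place of genotypes as replicates, 29 collagens rose and 5 fell, where 28.3% of all genes were called higher and 30% lower. Each array held 1 stage, so array and stage cannot be told apart in either fit. In the fit with genotypes as replicates, effects common to an array do not enter the error, which makes its p-values too small. The arrays of a stage may hold the same RNA, which limits both fits. With each channel scaled to its median, 20 collagens were higher and 8 lower, and the median of all genes moved to -0.25. The collagen median was then 0.34.

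The 6 largest rises were in both type VIII chains, in Col6a3 and Col6a1 of type VI, and in Col9a3 and Col9a2 of type IX. Col8a1 rose by 2.04 on the log2 scale in the Nxn-null and 2.23 in wild type (mean 2.14, SE 0.076, limma adjusted p 0.00527), and Col8a2 by 1.70 and 2.12. Col6a3 rose by 1.91 and 2.07, or 3.75-fold and 4.2-fold, and Col6a1 by 1.18 and 1.47. Col9a3 rose by 1.67 and 1.98 and Col9a2 by 1.41 and 1.81. In all 6 chains the rise was larger in wild type than in the Nxn-null, and it passed the test of a difference between genotypes in Col8a2, Col6a1, Col9a2 and Col9a3. Col6a2, the third type VI chain tested, rose by 0.75 and 0.95. A second Col8a1 probe was not well above background in any channel at E9.5 and gives no size for the rise.

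Col1a2 rose by 1.24 in the Nxn-null and 1.35 in wild type, and Col1a1 by 0.99 and 0.94, so type I chains rose 1.91-fold to 2.55-fold. Col16a1, a minor FACIT-like chain, rose by 1.09 and 1.25, Col7a1 by 1.05 and 1.05, and Col17a1 by 1.28 and 1.23. Col14a1 rose by 1.27 in the Nxn-null and 0.65 in wild type, or 2.42-fold and 1.57-fold, the reverse of the order in Col2a1, which rose by 0.73 and 1.16. The ratio at E9.5 and the rise share the E9.5 signals, so these orders restate the stage difference given above.

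By their brightest probes, all 11 fibrillar chains tested changed, 10 upward. Col5a3 was lower by a mean log2 change of -0.25 (limma adjusted p 0.0487). With each probe tested on its own, other kept probes of Col1a1 (0.93), Col2a1 (0.99) and Col27a1 (0.43) also rose. Those of Col11a2 (-0.06), Col5a1 (0.03), Col3a1 (0.21) and Col11a1 (0.20), and another of Col27a1 (0.09), did not pass. Of 15 collagens with several kept probes, 2 (Col11a2 and Col18a1) had stage changes of opposite sign. Of the 9 FACIT chains 8 rose and 0 fell, and of the 12 chains of other types 9 rose and 0 fell. Basement membrane chains were divided. Col4a2 rose by 0.51 (limma adjusted p 0.0127), while Col4a5 fell by 0.29 (limma adjusted p 0.0367) and Col4a6 fell by 0.37 (limma adjusted p 0.0382). Col4a1 (0.23, limma adjusted p 0.0544) and Col4a4 (-0.12, limma adjusted p 0.172) did not pass. A second Col4a1 probe rose by 0.67 (limma adjusted p 0.00683 with each probe tested on its own). The median change of type IV chains was -0.12, against 0.65 for fibrillar, 0.62 for FACIT and 0.95 for other chains. Col12a1 and Col19a1, FACIT chains, were not well above background at E9.5 in either genotype. Their E9.5 ratios of null over wild type carry no fold for this reason. Col12a1 read 1.2-fold higher at E11.5 in the Nxn-null and 1.37-fold higher in wild type, and Col19a1 1.46-fold and 1.54-fold. These are the observed changes from dim E9.5 signal and not lower bounds. In wild type at E11.5, both chains were well above background on only 1 of the 2 arrays. Without E9.5 replicate 1 or E11.5 replicate 2, 0 collagens were called lower between the stages, and without E9.5 replicate 2 the count was 1.

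**Figure D3:**
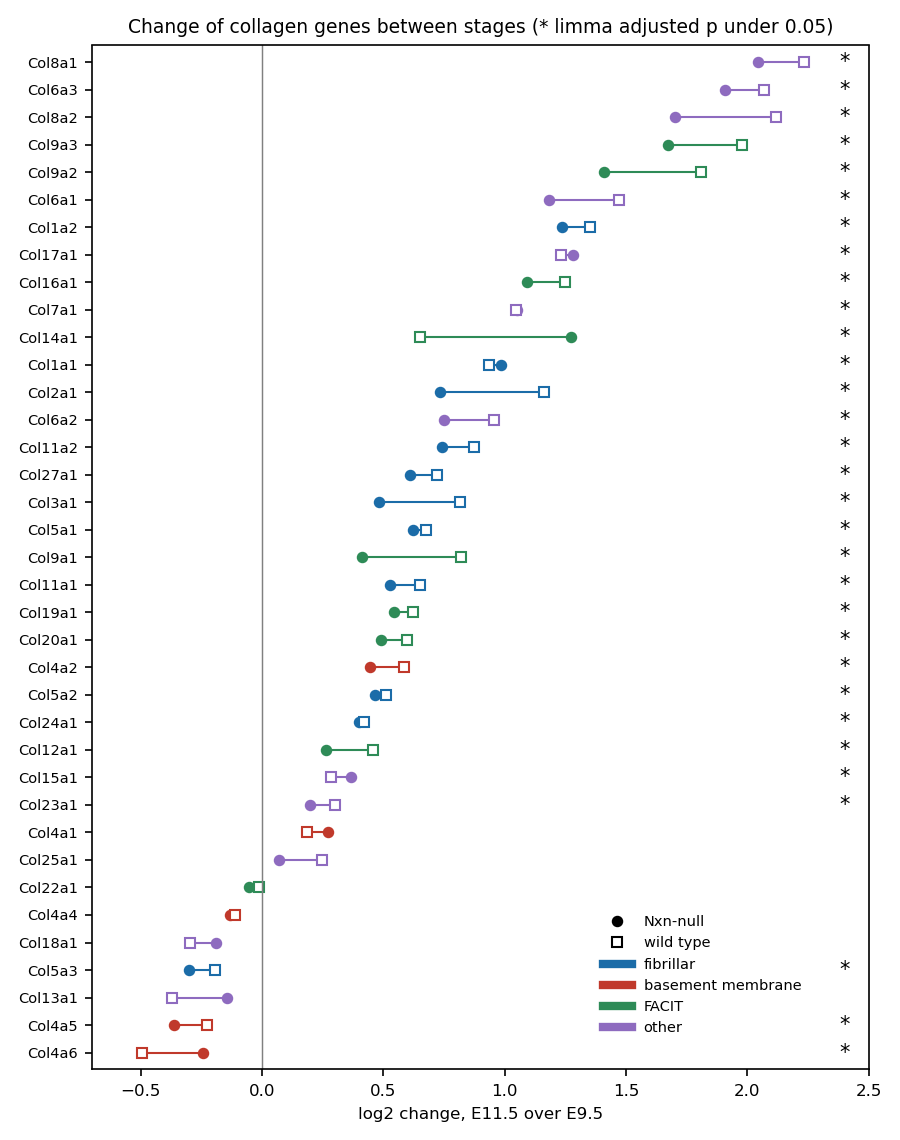
Log2 change of signal from E9.5 to E11.5 for 37 collagens in the Nxn-null (filled circles) and wild type (open squares), ordered by their mean and coloured by type, with stars for a limma adjusted p under 0.05 in the fit with the 2 genotypes as replicates. Col8a1 lies highest at a mean of 2.14, 28 starred genes lie above 0 and 3 below it, and Col14a1 is the collagen whose rise in the Nxn-null exceeds that in wild type by the most.

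**Figure D4:**
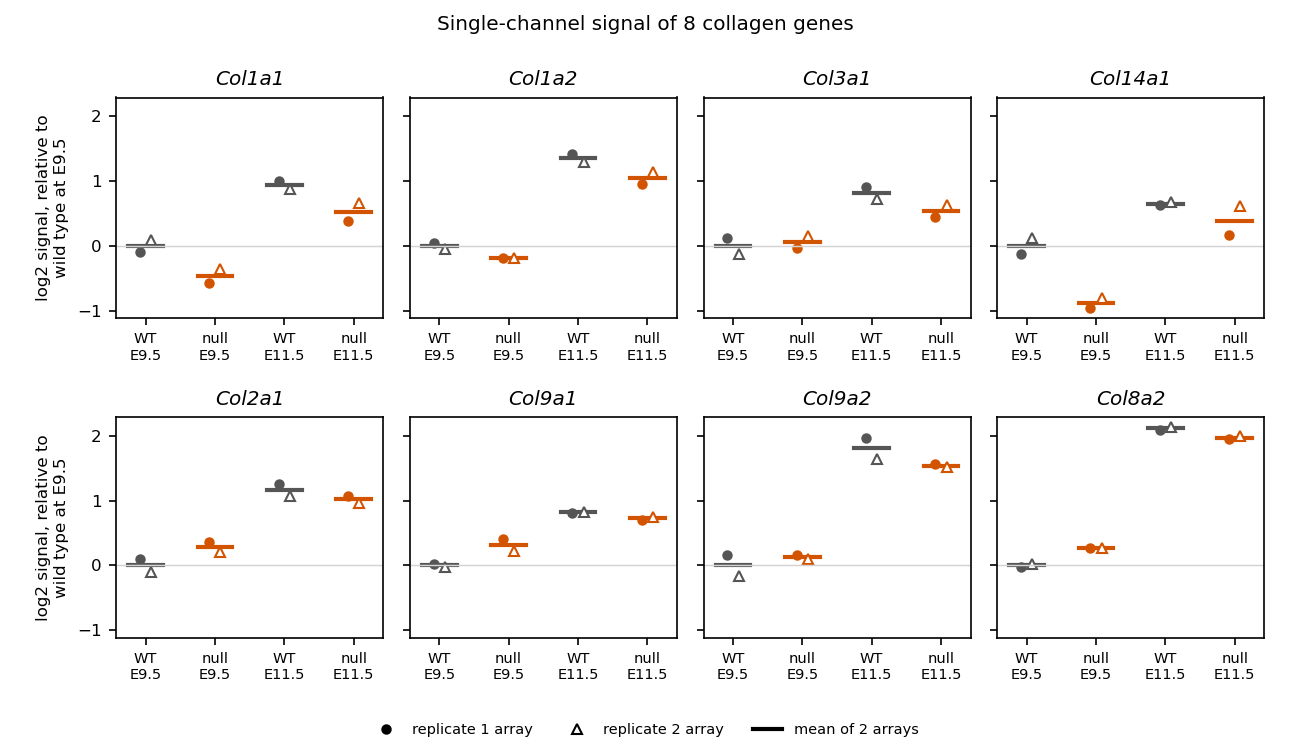
Log2 signal of 8 collagens in each channel after normalization between arrays, each set relative to the mean of the wild-type channels at E9.5; circles are replicate 1 arrays, triangles replicate 2 arrays, and bars means of 2. Col1a1 and Col14a1 are lower in the Nxn-null than in wild type at E9.5, Col2a1, Col9a1 and Col8a2 are higher, and all 8 genes are higher at E11.5 than at E9.5 in both genotypes.

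Genes that process collagen did not share 1 direction between genotypes. At E9.5, 3 of 29 tested were higher and 3 lower, and E11.5 had 1 higher and 2 lower. These shares lie near the all-gene shares of 9.87% higher and 14.8% lower at E9.5, and of 3.66% and 5.61% later. P4ha2, a prolyl hydroxylase subunit, was lower at E9.5 (-0.12 and -0.51, limma adjusted p 0.00101), as was Adamts2, which trims procollagen (-0.10 and -0.41). Colgalt1, which glycosylates hydroxylysine, was higher at both stages, with 0.07 and 0.34 on the E9.5 arrays and 0.40 and 0.37 on the E11.5 arrays. Sparc, a collagen-binding matrix protein, was higher at E9.5 (0.01 and 0.45). Loxl2, a lysyl oxidase, was lower at E11.5 (-0.65 and -0.24, mean -0.44), and so was P3h3 (-0.33 and -0.10), of the prolyl 3-hydroxylase family. From E9.5 to E11.5, 17 of the 29 rose and 2 fell, with a median log2 change of 0.30. The all-gene shares were 21.1% higher and 21% lower.

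The 15 collagen receptors and degradation genes tested held 4 higher and 0 lower calls at E9.5, and at E11.5 they held 1 higher and 2 lower. Itga11, an integrin chain that binds type I fibrils, had 0.54 and -0.12 on the E9.5 arrays, then -0.13 and -0.55 at E11.5, so its arrays disagreed in sign at E9.5. Mmp16, a membrane-bound metalloproteinase, was higher at E9.5 (0.14 and 0.24). Timp2, an inhibitor of metalloproteinases, had -0.29 and -0.49 at E11.5 (mean -0.39), and Gp6, the platelet collagen receptor, had 0.22 and 0.20. Between the stages 9 rose and 0 fell, with a median of 0.45, beside 21.1% higher and 21% lower over all genes.

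Markers of cells that make or neighbour collagen were counted beside these values. At E9.5, 1 of 17 mesenchyme markers was higher and 3 were lower (median 0.004). At E11.5, 0 were higher and 3 lower (median -0.05). Over all genes, 14.8% were lower at E9.5 and 5.61% at E11.5. Their summed signal, in linear intensity units, lay between 84270 and 91730 in wild type and between 89190 and 90800 in the Nxn-null at E9.5. At E11.5 it lay between 113800 and 118300 in wild type and between 108600 and 112600 in the Nxn-null. The groups thus overlapped at E9.5 and did not overlap at E11.5. From E9.5 to E11.5, 13 mesenchyme markers rose and 1 fell (median 0.53), beside 21.1% higher and 21% lower over all genes.

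Among 14 cartilage markers tested, E9.5 had 2 higher and 4 lower, while E11.5 had 3 higher and 2 lower. Their summed signal was 9152 to 9382 in wild type and 9397 to 10000 in the Nxn-null at E9.5, and 13550 to 13970 and 12250 to 12750 at E11.5. The order of the summed signals turned between the stages, but at E9.5 the ranges nearly met, at 9382 and 9397. The median log2 ratio of the list was 0.012 at E9.5 and 0.00058 later. Single markers turned either way: Sox9 went from a mean of 0.29 to -0.26 and Hapln1 from -0.18 to 0.25, a pair named after their values were seen. Their part in the collagen ratios was not tested.

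Extra-embryonic markers also differed. All 15 yolk sac endoderm markers were lower in the Nxn-null at E9.5, with a median log2 ratio of -3.01, and 2 were lower at E11.5, with a median of -0.03. Their summed signal at E9.5 was 17170 to 20620 in the Nxn-null against 171300 to 174000 in wild type, and at E11.5 it was 80230 to 80250 against 79260 to 87810. Of the 15, 10 were well above background on both arrays in the Nxn-null at E9.5. Of 9 parietal endoderm markers, which make the thick type IV membrane of the yolk sac, 1 was higher and 4 were lower at E9.5, against 1 higher and 0 lower at E11.5. Their summed signal at E9.5 was 17750 to 17940 in the Nxn-null and 19010 to 19620 in wild type, and at E11.5 it was 18460 to 20090 and 20620 to 20770.

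Decidua and trophoblast markers, 8 in number, had 4 higher and 2 lower calls at E9.5 but 0 higher and 1 lower at E11.5. Their summed signal at E9.5 was 4613 to 5017 in the Nxn-null and 4134 to 4321 in wild type. Of 12 red cell markers, 11 were lower and 0 higher at each stage. The median red cell ratio was -0.55 at the earlier and -0.89 at the later stage. Their summed signal was 269800 to 300000 in the Nxn-null and 460400 to 525500 in wild type at E9.5, and 318800 to 419800 against 816800 to 896200 at E11.5. The summed signals of the cartilage, yolk sac, parietal endoderm, decidua and red cell lists did not overlap between genotypes at E9.5. Those of the mesenchyme, cartilage, parietal endoderm and red cell lists did not overlap at E11.5. With 2 channels for each genotype such a gap can arise by chance, and no share over other gene lists was computed. A linear sum also weighs bright genes most. The part of these cell types in the collagen values was not tested.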

How the data were processed

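Two-colour Agilent arrays were read from the deposited scanner files, which hold, per the file headers, spot intensity with local background in each channel and a log10 ratio of red over green (Feature Extraction 9.1.3.1; 9.5.3.1 per the submitters' processing notes). The deposited series values equal log10 of Nxn-null over wild type within 0.0001 in 99.995% to 100% of probes, with column medians from -0.0347 to 0.0408. Signals were corrected by normexp (offset 50) and loess within arrays in limma 3.58.1 under R 4.3.3 with version 1.17.8 of data.table. Marked outlier spots were dropped, and probes were kept if a stage's arrays both showed them well above background in 1 genotype at least. A gene was represented by its brightest kept probe. Names came from RefSeq (GRCm38.p6).

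Ratios at a stage were tested on all 4 arrays with stage means and a dye term, which leaves 1 residual degree of freedom. The shared ratio was tested on 2 stage averages, and the stage change on Aquantile single channels averaged over dyes, with 2 genotypes as replicates. P-values were Benjamini-Hochberg adjusted over 17161 genes at 0.05, and scripts were tested on simulated data. An SE is limma's moderated SE, with 18.3 prior degrees of freedom in the ratio fit. It does not follow the gap between the 2 arrays of a stage. At E9.5 it was 0.062 both for Col4a6 (0.06 and -0.59) and for Col25a1 (0.12 on both arrays). Log2 ratios on each array are given so that their spread can be read. The number of arrays limits the precision.

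Values on every array are given for collagens called at a stage or 1.5-fold apart. For the 12 largest stage changes, the change in each genotype is given. Others were named as main chains of a type. Col5a2, Col4a5, Col24a1, the probes other than the brightest and Col5a3 were named after their values were seen. Members and lists were chosen with earlier results of these data known. Figures were drawn with matplotlib.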

Additional observations from a re-analysis of the deposited data

Results flagged for a closer look

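In 8 collagens the null over wild-type log2 ratio differed between E9.5 and E11.5 by limma's contrast of the stages (adjusted p under 0.05, 2 arrays a stage). The E11.5 minus E9.5 difference was 0.62 for Col14a1, whose ratio stayed below 0 on all 4 arrays. It was -0.43 for Col2a1, -0.42 for Col8a2, -0.41 for Col9a1, -0.40 for Col9a2, -0.33 for Col3a1, -0.31 for Col9a3 and -0.29 for Col6a1. In Col2a1, Col8a2, Col9a1, Col9a2, Col9a3 and Col6a1 both arrays were above 0 at E9.5 and both below 0 at E11.5, while the E9.5 arrays of Col3a1 lay on either side of 0. On E9.5 replicate 1, Col9a2 (0.0045) and Col6a1 (0.0055) were barely above 0. The contrast that picked these genes used the same arrays, so their order adds no support to it.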

How the results depend on the processing

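Each ratio pairs the Nxn-null with wild type on 1 array, and no further pairing was possible because the labels give no replicate numbers. The numbers used here follow the dye orientation, so the dye term splits the arrays as a replicate block would. The fit with no dye term is the fit without that block. Ratio fits with 1 array left out held no dye term either, so they do not test a single array apart from it. For single genes, 285 of 504 alternative values kept direction and call, 217 kept direction and lost the call, and 2 reversed: Col4a6 at E9.5, between -0.586 and 0.0551 with 1 array left out, and Col16a1 at E11.5, between -0.514 and 0.0248. The reversals were without E9.5 replicate 2 and without E11.5 replicate 1. Calls at E9.5 (3 higher, 7 lower) became 0 and 1 with no dye term or median centring, 1 and 1 on the Feature Extraction log ratio, 4 lower with no filter, and 0 to 0 higher and 0 to 1 lower with 1 array left out. The 10 lower calls at E11.5 became 0 with no dye term, median centring or the Feature Extraction log ratio, 5 with no filter, 6 with the mean of all probes and 0 to 0 with 1 array left out, and testing every probe added 1 higher call. Stage differences (1 higher, 7 lower) became 0 and 0 with no dye term, median centring, the Feature Extraction log ratio or 1 array left out, 4 lower with offset 10 or no filter, and 2 higher with every probe. The 3 falls between stages became 5 with trend and robust moderation, array means or every probe, 8 with each channel scaled to its median, and 0 to 3 with 1 array left out. The Feature Extraction log ratio put 1 collagen (Col14a1) 2-fold apart at E9.5.

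The family median at E9.5 moved to 0.0406 on the Feature Extraction log ratio and 0.0414 with median centring. The fibrillar median moved to 0.0408 with median centring, and the basement membrane median to 0.0501 with it, 0.0618 with the mean of all probes and 0.0822 with every probe. FACIT moved to 0.103 on the Feature Extraction log ratio. With 1 array left out, E9.5 medians ran from 0.00552 to 0.0169 (family), -0.103 to -0.0102 (fibrillar), -0.0176 to 0.0551 (basement membrane) and -0.0989 to 0.0345 (other). At E11.5 they ran from -0.0454 to 0.184 (basement membrane) and -0.102 to -0.0741 (other). E11.5 medians moved with median centring to -0.0311 (family), -0.0357 (fibrillar) and -0.0201 (other), and with every probe to -0.0729 (family) and -0.0546 (other). Other types moved to -0.135 on the Feature Extraction log ratio, -0.0597 with no filter and -0.0608 with the mean of all probes. The cause was not tested.

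Stage change medians moved to 0.49 (family) with the mean of all probes or every probe, and to 0.41 (fibrillar) and 0.82 (other) with the mean of all probes. Scaling each channel to its median gave 0.34 (family), 0.32 (fibrillar), -0.31 (basement membrane) and 0.73 (other), as the median of all genes moved to -0.25. Processed signals gave -0.34, 1.58 (FACIT) and 1.21 (other), with all genes at -0.18. Basement membrane was -0.0898 with no filter and between -0.165 and -0.0792 with 1 array left out. FACIT was 0.81 with offset 10 and 0.96 with both genotypes above background. Other types were 1.03 with offset 10, 0.59 with no filter and 0.33 with every probe.

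Signal close to background limits Col12a1, Col19a1, Col17a1 and Col20a1, none of which was well above background on both E9.5 arrays in either genotype.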
